A study of Mus musculus with 2 samples.

Results

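The non-clustered protocadherins are cadherin-like adhesion molecules whose genes stand alone in the genome, unlike the alpha, beta and gamma protocadherin clusters. The genes described here are the 9 given by symbol: Pcdh1, Pcdh7 and Pcdh9 of the delta-1 subgroup, Pcdh8, Pcdh10, Pcdh17, Pcdh18 and Pcdh19 of the delta-2 subgroup, and Pcdh20, which is placed in neither subgroup here. All 9 were found by Ensembl identifier among the 43346 annotated genes of the deposited tables. The RNA came from whole brains of C57BL/6J mouse embryos at 14.5 days, from mixed-sex littermates, and no treatment or genetic change is named. Polyadenylated RNA longer than 200 nt was sequenced as stranded pairs of 101-nt reads in 2 libraries, numbered by the labels as biological replicates 1 and 2. Both libraries belong to 1 group, so there is no contrast between conditions and no test. The labels do not say which embryos each library was made from, so their spread may be technical. In bulk tissue, fewer cells of a type and less RNA per cell cannot be told apart.

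Protocadherins of the delta subgroups have an extracellular part of cadherin repeats, a single membrane-spanning stretch and a cytoplasmic tail that differs between subgroups. Adhesion through them is weaker than through classical cadherins, and in the developing brain they are known for patterned expression in regions, layers and nuclei and for roles in axon growth, cell sorting and synapse formation. Delta-1 tails carry a docking motif for protein phosphatase 1, and several delta-2 tails recruit the WAVE complex, which drives branched actin assembly.

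Every one of the 9 genes was detected at 1 TPM (a level per transcript length and library size) or more in both libraries, against 62.2% of all 21474 protein-coding genes. Summed over the 9 genes, the level was 162 TPM in the first library and 233 TPM in the second (replicates 1 and 2). Pcdh8 and Pcdh10 led in both libraries and together held 56.0% and 45.1% of that sum. Pcdh20 came last in both. The highest member stood 50.2-fold above the lowest in replicate 1 and 32.3-fold in replicate 2. The 5 delta-2 genes held 79.2% of the family's TPM in replicate 1 and 68.7% in replicate 2, and the 3 delta-1 genes held 20.1% and 30.6%. The median member was at 12.6 and 19.4 TPM, beside medians of 16.7 and 17.2 TPM over the 15240 genes that averaged 1 TPM or more.

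**Figure D1:**
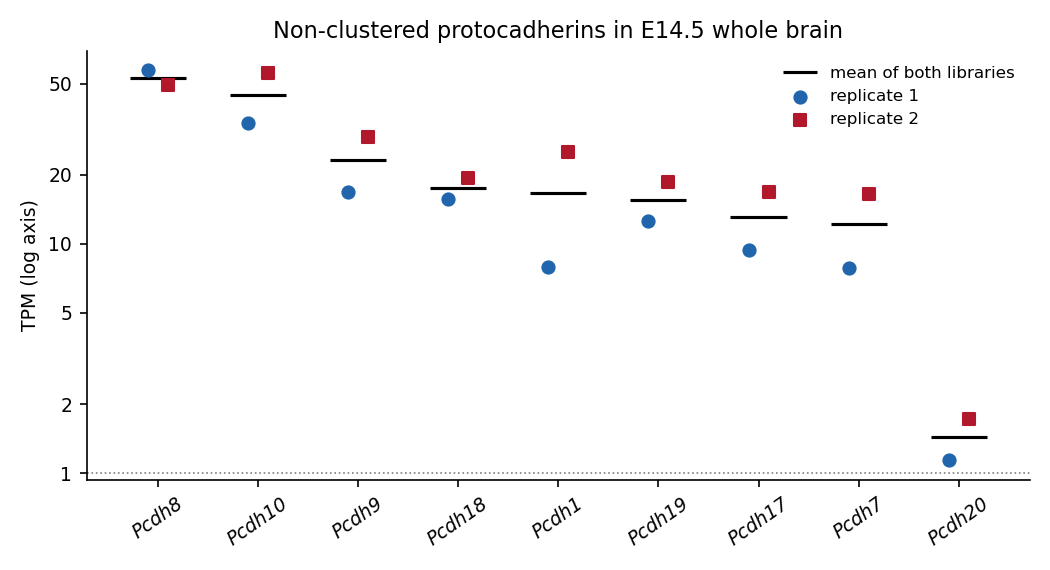
TPM of each gene on a log axis, with 1 point per library and a bar at the mean of both, ordered by mean. Pcdh8 and Pcdh10 lie highest, Pcdh20 lies just above the dotted line at 1 TPM, and Pcdh8 is the member whose replicate 1 point lies above its replicate 2 point.

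Among the delta-2 genes, Pcdh8, the mouse counterpart of the activity-regulated cadherin arcadlin, stood at 57.2 and 49.1 TPM in replicates 1 and 2 (53.2 ± 5.73, SD, n = 2), from 14592 and 11262 expected counts. This is a short gene of 4.54 kb on the minus strand of chromosome 14 (79766775 to 79771312 in mm10). Pcdh10, also called OL-protocadherin and known for a role in axon growth through the ventral forebrain, stood at 33.7 and 55.8 TPM (44.8 ± 15.6, SD, n = 2), from 11079 and 16578 counts. Pcdh8 was the higher of these in replicate 1 and Pcdh10 in replicate 2, so their order differed between the libraries. Pcdh18, whose tail binds the reelin adaptor Dab1, had 15.7 and 19.4 TPM (17.5 ± 2.60, SD, n = 2). Pcdh19, the X-linked gene whose loss causes an epilepsy that affects mainly females, had 12.6 and 18.5 TPM (15.6 ± 4.2, SD, n = 2). Pcdh17, a regulator of axon extension and presynaptic assembly, had 9.38 and 16.9 TPM (13.1 ± 5.29, SD, n = 2). Each of these last 3 genes had 5155 expected counts or more in both libraries.

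Of the delta-1 genes, Pcdh9 was the highest, at 16.9 and 29.4 TPM (23.1 ± 8.82, SD, n = 2), and it is the longest gene of the family, spanning 877 kb on chromosome 14 (93013410 to 93890679 in mm10, minus strand). Pcdh7, or BH-protocadherin, had 7.87 and 16.6 TPM (12.2 ± 6.14, SD, n = 2) and spans 415 kb on chromosome 5 (57717967 to 58133230, plus strand). Pcdh1, also called axial protocadherin, had 7.95 TPM in the first and 25.3 TPM in the second library (16.6 ± 12.3, SD, n = 2), from 2295 and 6313 counts. It lies on chromosome 18 (38185914 to 38212053, minus strand), and its SD was the largest of the 9 relative to its mean. Pcdh1 was the 7th member in replicate 1 and the 4th in replicate 2, the widest move in order within the family. Pcdh20, on chromosome 14 (88464743 to 88471396, minus strand), had 1.14 and 1.73 TPM (1.44 ± 0.417, SD, n = 2), from 391 and 476 counts.

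Of the 36 pairs of members, 30 were apart, meaning that the log2 ratio of their TPM had the same sign in both libraries and a mean above its SD. With 2 libraries this is a loose rule and not a test. The share of pairs of other genes that pass it was not computed. Between neighbours in the order of mean level, Pcdh8 and Pcdh10, Pcdh18 and Pcdh1, Pcdh1 and Pcdh19, and Pcdh17 and Pcdh7 were not apart. Pcdh10 exceeded Pcdh9 by 0.96 ± 0.05 (log2 ratio, SD, n = 2). Pcdh9 exceeded Pcdh18 by 0.35 ± 0.35 (log2 ratio, SD, n = 2), a mean that barely exceeded its SD. The widest step was the last, from Pcdh7 to Pcdh20, at 3.02 ± 0.33 (log2 ratio, SD, n = 2). By these levels the family formed a leading pair, a middle group of 6 genes between 12.2 and 23.1 TPM on average, and Pcdh20 alone below.

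The libraries did not hold these genes equally. Pcdh8 was lower in replicate 2, and the other 8 were higher there, against 51.0% of the 15240 genes averaging 1 TPM or more. On the scale of log2(TPM + 1), which understates differences of low genes, the ratio of replicate 2 over replicate 1 was 1.55 for Pcdh1, 0.98 for Pcdh7 and 0.76 for Pcdh9. It was 0.78 for Pcdh17, 0.71 for Pcdh10, 0.52 for Pcdh19, 0.35 for Pcdh20 and 0.29 for Pcdh18. For Pcdh8 it was -0.22. The median of the 9 was 0.71, beside 0.01 for all genes, of which the middle 90% lay between -0.64 and 0.78. Pcdh1 alone differed 2-fold or more, as did 2.39% of all genes in the same direction and 1.14% in the other. Pcdh7 stood just short of that limit and passed it with a pseudocount of 0.1 TPM. No member reached it on the log2(RPKM + 1) scale of the mm9 values (RPKM, reads per gene length and library size), where Pcdh1 had 3.04 and 1.11 RPKM in 2 replicates that are not tied to the libraries. Only 0.663% of all genes had a higher ratio than Pcdh1 and 2.49% a higher one than Pcdh7, whereas 28% had a lower one than Pcdh8.

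For every member, the exact binomial interval of the count ratio between the libraries excluded equality. Scaled by the libraries' totals on annotated genes, the count ratio of replicate 2 to replicate 1 was 2.92 for Pcdh1 (95% exact binomial interval 2.78 to 3.06). For Pcdh8 it was 0.819 (0.799 to 0.839), and for Pcdh20, the thinnest, 1.29 (1.13 to 1.48). These intervals cover counting error of rounded expected counts only, with no error of the scaling. They may be too narrow, since reads of a library are not independent molecules.

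Markers of brain regions differed between the same libraries. The forebrain patterning genes, led by Lhx2, were all lower in replicate 2 (8 of 8 genes, median log2 ratio -1.04, summed level 591 and 269 TPM). The hindbrain Hox and segment genes were all higher there (10 of 10, median 2.16, 25.6 and 172 TPM), as were the midbrain and cerebellum patterning genes (6 of 6, median 1.08, 31.6 and 77.2 TPM). Intermediate progenitor genes, led by Neurog2 and Neurod1, were lower in replicate 2 (4 of 4, median -1.01, 159 and 77.8 TPM), and 5 of 6 genes of young neurons were higher (median 0.30, 4437 and 4858 TPM). Inhibitory neuron genes were lower in 4 of 6 cases (median -0.39, 506 and 323 TPM), and progenitor genes in 5 of 8 (median -0.34, 2152 and 1970 TPM). Genes of meninges and fibroblasts, led by Col3a1 and Col1a2, were higher in 6 of 6 cases (median 0.60, 269 and 527 TPM), and those of pericytes and smooth muscle in 5 of 5 (median 0.23, 66.7 and 83.4 TPM). The endothelial list gave 3 higher of 5 (median 0.50, 154 and 170 TPM), and the epidermal list 4 higher of 5 (median 0.11, 88.3 and 89.8 TPM). No gene of these lists was at 0 in either library. The neuron markers Tubb3, at 2753 and 2640 TPM, and Gap43, at 543 and 859 TPM, were abundant in both libraries. Mitochondrial genes held 8.49% of TPM in replicate 1 and 12.2% in replicate 2. The part of these markers and of the mitochondrial share in the difference of the protocadherins was not tested.

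**Figure D2:**
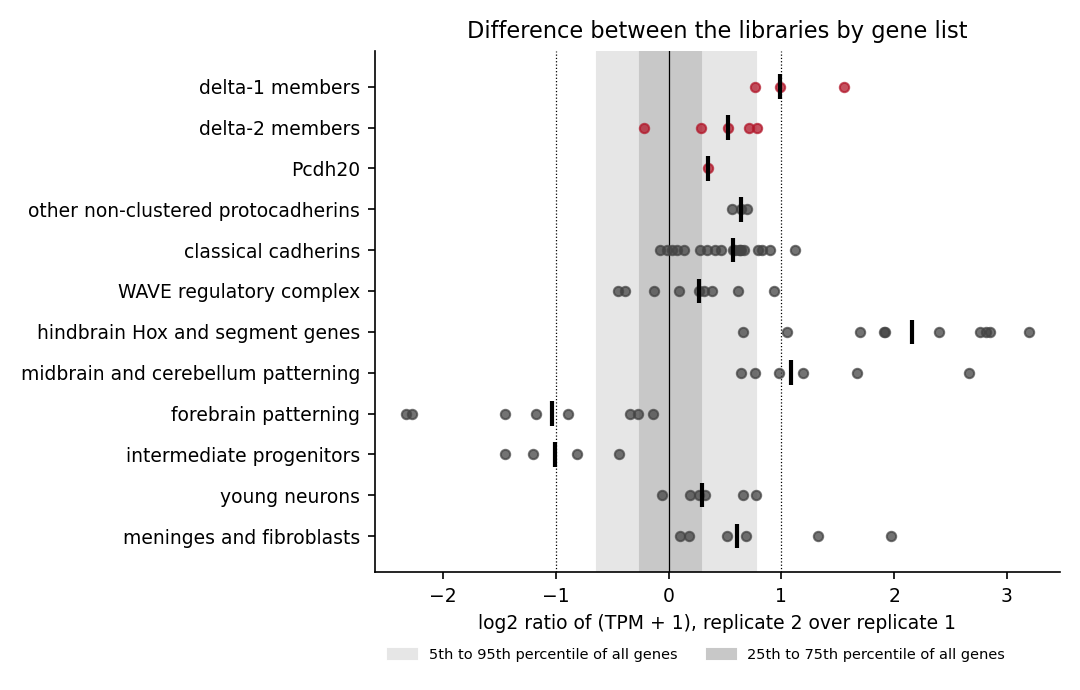
Log2 ratio of (TPM + 1), replicate 2 over replicate 1, for each gene of 12 lists (points) with the list's median (bar), over the range of all genes (grey bands) and with dotted lines at 2-fold. The delta-1 points lie from 0.76 to 1.55, the delta-2 points from -0.22 to 0.78, the hindbrain genes to the right and the forebrain genes to the left of 0.

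The other cadherins and the intracellular partners give the setting for these levels. Pcdh11x, Pcdh12 and Pcdh15, which are non-clustered protocadherins outside the 9, had 7.14 ± 2.21, 4.36 ± 1.78 and 6.11 ± 2.21 TPM (SD, n = 2), and all 3 were higher in replicate 2 (median log2 ratio 0.64). Of 19 classical and related cadherins, 16 were detected in both libraries and 17 were higher in replicate 2 (median 0.57, summed level 346 and 440 TPM). Cdh2, the N-cadherin of neural tissue that some protocadherins bind within the same membrane, led them at 124 and 136 TPM, above every protocadherin of the family. Cdh24 followed at 57.6 and 54.6 TPM and Cdh13, which has no cytoplasmic tail, at 28.5 and 44.8 TPM. Cdh6 alone of the 19 differed 2-fold or more, at 1.65 and 4.75 TPM.

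All 9 genes of the WAVE complex were detected, and 6 were higher in replicate 2 (median log2 ratio 0.27). Brk1, its smallest subunit, stood at 205 and 157 TPM, Nckap1 at 84.8 and 90.5 TPM, and Abi1, an adaptor subunit, at 90.2 and 65.8 TPM. No gene of the complex differed 2-fold or more. The 10 other partner genes were all detected, with 6 higher in replicate 2 (median 0.07). The highest were the RNA-binding protein gene Nono at 347 and 327 TPM and the phosphatase subunits Ppp1ca at 363 and 297 TPM and Ppp1cc at 302 and 219 TPM, which the delta-1 docking motif binds. Dab1, the partner of Pcdh18, had 41.4 and 41.8 TPM. Nono, Ppp1ca, Ppp1cc and Dab1 were above every delta-1 gene in both libraries, the first 3 being named as the highest of the list. Smad3, of the same list, had 12.4 and 19.3 TPM, below Pcdh9 in both libraries.

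At the transcript level, the same transcript led by TPM in both libraries for all 9 genes, as it did for 91.8% of the 7184 genes that averaged 10 TPM or more and have several transcripts. Pcdh17 had 1 annotated transcript, so its agreement was fixed in advance. Pcdh17 and Pcdh20, which averaged below 10 TPM, fall outside the filter behind the 91.8%. Pcdh18-201 held 87.0% ± 0.562 of its gene's TPM and Pcdh7-203 72.4% ± 1.42 (SD, n = 2), with Pcdh18-202 at 10.9% ± 2.54 and Pcdh7-201 at 11.5% ± 0.941 (SD, n = 2) behind them. Pcdh7-201 ends early and encodes 171 codons after the membrane stretch, against 357 in Pcdh7-203. For Pcdh8, Pcdh8-201 held 58.7% ± 1.45 and Pcdh8-204 32.2% ± 0.768 (SD, n = 2). Pcdh1-204, a model with an incomplete reading frame, held 58.6% ± 3.49 and Pcdh1-203 31.4% ± 6.84 (SD, n = 2). Pcdh20-201 held 100% in replicate 1 and 70.5% in replicate 2, the rest being Pcdh20-202. Both encode 952 codons, and Pcdh20-202 rests on 0 counts in replicate 1 and 98.7 in replicate 2.

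In 3 genes, short transcripts that do not encode the full protein took a large share of TPM but few counts, since TPM divides by length. Pcdh9-203, a retained intron model of 656 nt, led its gene by TPM with 35.3% ± 1.56 (SD, n = 2) and held 4.05% of its counts. By counts, Pcdh9-204 led with 46.4%, followed by Pcdh9-208 with 27.8% and Pcdh9-202 with 14.6%. By TPM these held 30.1% ± 1.5, 17% ± 5.13 and 11.3% ± 1.81 (SD, n = 2). Pcdh10-205, of 634 nt, held 33.0% ± 2.49 (SD, n = 2) of TPM and 2.87% of counts, behind Pcdh10-202 with 35.6% ± 3.32 of TPM and 59.3% of counts. Pcdh10-204 and Pcdh10-203 held 14.3% ± 3.98 and 10.6% ± 0.365 of TPM (SD, n = 2). Pcdh19-204, of 335 nt, held 11.4% ± 0.602 (SD, n = 2) of TPM and 0.178% of counts. The coding transcripts Pcdh19-202, Pcdh19-203 and Pcdh19-201 held 38.8% ± 4.48, 36.5% ± 3.51 and 12.8% ± 6.67 of TPM (SD, n = 2). Gene-level TPM of Pcdh9, Pcdh10 and Pcdh19 includes these short models.

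**Figure D3:**
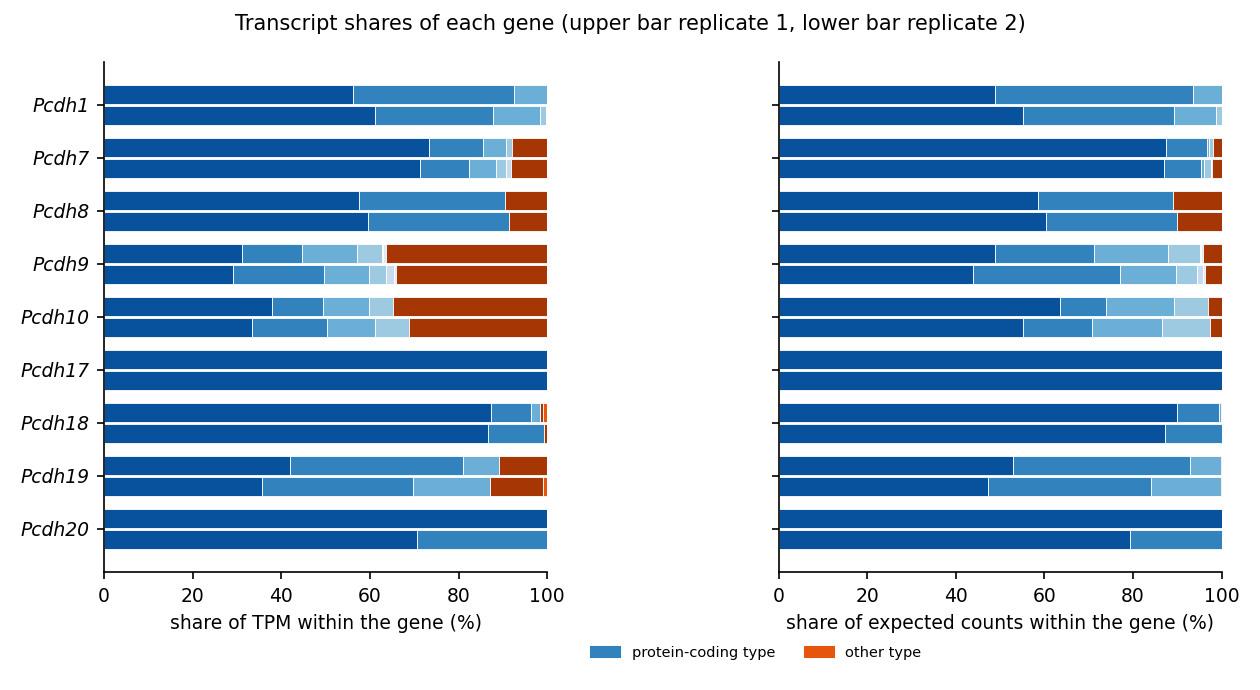
Share of each transcript within its gene, by TPM (left) and by expected counts (right), in replicate 1 (upper bar) and replicate 2 (lower bar), with transcripts of protein-coding type in blue and other types in orange. The orange share of Pcdh9, Pcdh10 and Pcdh19 is wide by TPM and thin by counts, and the bars of the libraries resemble each other for each gene except Pcdh20.

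The genes, which were chosen as members of 1 family, share a build. Each has 1 long coding exon, of 2147 nt in Pcdh19 to 3174 nt in Pcdh7, beside a median longest coding exon of 339 nt over 21951 protein-coding genes. Every member lay above the 97th percentile of that measure. For complete models other than Pcdh1-203, the most hydrophobic window of the later part was taken as the membrane stretch. Exons behind the long one encode further parts of the tail in Pcdh7, Pcdh8, Pcdh9, Pcdh17, Pcdh18, Pcdh19 and 3 models of Pcdh10. Pcdh10-204, Pcdh1-201 and Pcdh1-202 end their reading frame within the long exon. Pcdh1-203, of 360 codons, lacks that exon, its longest coding exon being of 837 nt. In the deposited splice junctions, which the authors mapped to mm9 and summed over both replicates (numbered first and second there, without a tie to the libraries), 35 of the 40 annotated introns of the 9 genes had reads. Another 17 junctions with 10 or more reads, canonical splice sites and a reproducibility value below 0.1 were not in the Ensembl 65 annotation used there. These lay in Pcdh7, Pcdh8, Pcdh9, Pcdh17, Pcdh18 and Pcdh19. Neither count was taken over all genes, so neither can be called particular to this family.

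Several of the alternative junctions lie in the cytoplasmic tail. In Pcdh8, a donor inside the long exon removes 291 nt, or 97 codons behind the membrane stretch. It took 200 of 779 reads, or 25.7% (95% exact interval 22.6 to 28.9%), with 23.6% and 27.9% in the file's first and second replicate. By TPM, Pcdh8-201, which keeps those codons, held 64.5% ± 1.11 (SD, n = 2) of the sum of Pcdh8-201 and Pcdh8-204, beside 74.3% by junction reads. In Pcdh7, donors 24 nt and 108 nt inside the exon behind the long one took 78 and 22 of 207 reads (37.7% and 10.6%), and the outer donor took 82. A further exon of 96 nt was included by 22 and 25 reads, against 82 from the outer donor that skipped it. The 78 and 22 reads from the inner donors also joined the last exon without it.

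In Pcdh9, an alternative acceptor removes 126 nt that hold the phosphatase docking motif. The inner acceptor took 50 of 114 reads, or 43.9% (95% exact interval 34.6 to 53.5%), and the outer acceptor 64. The replicates of the file differed widely here, with 65.9% in the first and 31.5% in the second. Transcripts with the inner acceptor, Pcdh9-202 and Pcdh9-207, held 25.2% ± 4.98 (SD, n = 2) of the TPM of the 5 complete coding transcripts. This is not the same share, since the 114 reads all came from the donor of an exon of 102 nt. Pcdh9-202 and Pcdh9-204 lack that exon. Of the complete coding transcripts of Pcdh7, those with the motif held 86.0% and 87.1% of TPM. Of the 3 complete models of Pcdh1, Pcdh1-203 alone encodes it, but this model has 360 codons and was too short to be searched for a membrane stretch. The 220-nt exon that holds its motif is joined to the long exon of the gene by 257 reads, a junction of the leading but incomplete model Pcdh1-204. None of the complete models of Pcdh8, Pcdh10, Pcdh17, Pcdh18, Pcdh19 or Pcdh20 encodes that motif. The stretches below give the coding bases of the motif in capitals for Pcdh7 (chr5:57913162-57913176, plus strand) and Pcdh9 (chr14:93326860-93326874, minus strand), from GENCODE transcripts in mm10. They are followed by the inner splice sites, with the GT of each donor and the AG of the acceptor in capitals: Pcdh8 (chr14:79768786-79768787), Pcdh7 (chr5:57913349-57913350) and Pcdh9 (chr14:93326755-93326756).
Pcdh7 docking motif: ccatttCGTAGAGTGACGTTTtctgtt
Pcdh9 docking motif: tctcagCGCCGTGTTACCTTTcacctt
Pcdh8 inner donor: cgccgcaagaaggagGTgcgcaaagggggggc
Pcdh7 inner donor: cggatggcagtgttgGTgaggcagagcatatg
Pcdh9 inner acceptor: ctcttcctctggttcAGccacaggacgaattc

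In 3 delta-2 genes, reads used a pair of acceptors that lie 3 nt apart, which adds or removes 1 codon of the tail. The less used acceptor took 98 of 282 reads in Pcdh19, or 34.8% (95% exact interval 29.2 to 40.6%), 94 of 452 in Pcdh18, or 20.8% (17.1 to 24.8%), and 23 of 359 in Pcdh17, or 6.41% (4.10 to 9.46%). These intervals do not overlap, and the file's replicates gave 33.6% and 35.6%, 17.7% and 23.7%, and 4.58% and 7.77%. In Pcdh19 and Pcdh18 the acceptor in less use is the one that keeps the 3 bases. By TPM, Pcdh19-203, the form without them, held 41.4% ± 3.36 (SD, n = 2) of the 3 coding transcripts, beside 65.2% of the junction reads. The joined exons are given with those bases in capitals, for Pcdh18 (bases chr3:49753626-49753628) and Pcdh19 (bases chrX:133625439-133625441), both on the minus strand of mm10, beside the form without them.
Pcdh18-202: actcctgctgttgagCAGgtctcgcagctt
Pcdh18-201: actcctgctgttgaggtctcgcagctt
Pcdh19-202: ccatttaatcaaaagCAGctccaccttcaa
Pcdh19-203: ccatttaatcaaaagctccaccttcaa

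Pcdh10, Pcdh17 and Pcdh19 each have an exon of 59 nt behind the long exons, at the start of the part of the tail that delta-2 proteins share. Of its bases, 16 are the same in all 3 genes at the same place. Pairs of genes shared 28 (Pcdh10 and Pcdh17), 25 (Pcdh10 and Pcdh19) and 32 (Pcdh17 and Pcdh19). The exon is printed with the shared bases in capitals, for Pcdh10 (chr3:45383531-45383589, plus strand), Pcdh17 (chr14:84477323-84477381, plus strand) and Pcdh19 (chrX:133632895-133632953, minus strand).
Pcdh10: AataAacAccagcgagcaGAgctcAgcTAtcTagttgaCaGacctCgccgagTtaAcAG
Pcdh17: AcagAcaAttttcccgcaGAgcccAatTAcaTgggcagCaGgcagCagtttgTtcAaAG
Pcdh19: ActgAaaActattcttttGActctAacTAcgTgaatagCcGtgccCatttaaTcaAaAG

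In Pcdh10, 794 and 995 reads joined the 59-nt exon to its neighbours, and no junction with 10 or more reads skipped it. In Pcdh17, 313 and 336 reads included it and 55 skipped it, an inclusion of 85.5% from these junctions. A second exon of Pcdh17, of 84 nt and absent from the Ensembl 65 annotation, was included by 85 and 46 reads and skipped by 189 (25.7% inclusion, with 28.2% and 24.6% in the file's replicates). In Pcdh19 an exon of 141 nt between the long exon and the tail exons was included by 39 and 23 reads and skipped by 159 (16.3% inclusion, 18% and 15.4% in the replicates). By TPM, Pcdh19-202, the transcript with that exon, held 44.0% ± 4.43 (SD, n = 2) of the 3 coding transcripts. A second pair of junctions, with 19 and 10 reads, joined the long exon of Pcdh19 straight to its 173-nt or 170-nt exon. In Pcdh10, 346, 175 and 116 reads went from the same donor to the last exons of Pcdh10-202, Pcdh10-203 and Pcdh10-201 (54.3%, 27.5% and 18.2%). Pcdh10-205 shares the last acceptor of Pcdh10-201, so the 116 reads cannot be given to either alone. Pcdh10-204, a model of 1 exon, ends upstream and has no junction.

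**Figure D4:**
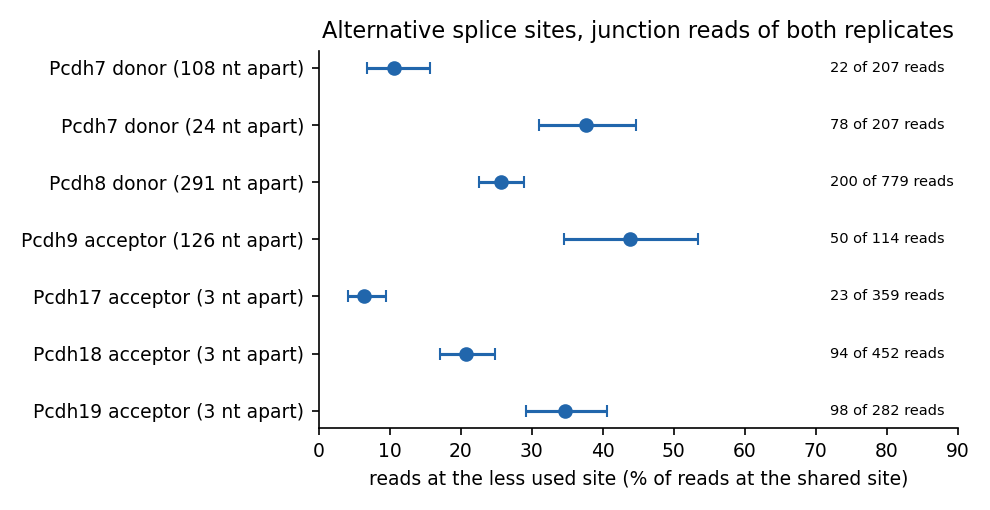
Share of junction reads at the less used of neighbouring splice sites, as points with 95% exact binomial intervals, from reads of both replicates summed by the authors. The 3-nt acceptors range from 6.41% in Pcdh17 to 34.8% in Pcdh19, and the inner acceptor of Pcdh9 reaches 43.9% with the widest interval.

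Some transcript models with a large share of counts have introns or splice sites that the junction file does not cover. The intron of 558816 nt by which Pcdh9-204 skips an exon of 102 nt had no junction read, and 89 of the 90 canonical reads from the donor of the long exon went into that exon. Yet Pcdh9-204 led the gene by counts. The longest junction listed in the file spans 2482431 nt, taken without a limit on reads or reproducibility. Whether introns of 558816 nt would be recovered was not tested. Likewise, the intron of 10472 nt that marks Pcdh1-203 had no read, while this model held 39.3% of the gene's counts. The introns of Pcdh1-204, the leading model, had 303, 257 and 238 reads. For Pcdh18-202, the 3-nt acceptor had 94 reads, but of the 446 canonical reads that reach the last exon, 444 came from the donor of Pcdh18-201. Junctions were mapped to another build and annotation than the transcript shares, and the part of that in these differences was not tested.

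Upstream of their starts, 7 of the 8 members with a RefSeq promoter window used here hold the CCAAT box (CCAAT or, on the other strand, ATTGG). The same was found in 33.8% of 32851 windows of the same length. Pcdh1 is not among the 8 members. Pcdh7 holds no box in its window, but its RefSeq start lies 114 bases inside the GENCODE gene. Its window therefore reaches less far upstream of the GENCODE start, and a box beyond it would be missed. Pcdh8, the highest member in mean level, also holds TATAAA, which stands 30 bases before the start, with TATAAA on either strand in 12.4% of all windows. The box begins 32 bases before the start in Pcdh18, 50 in Pcdh10, 58 and 101 in Pcdh17, 65 in Pcdh19, 68 in Pcdh8 and 82 in Pcdh9, but 185 in Pcdh20, the lowest member. The G and C content of the windows was 42.4% in Pcdh20 and between 51.2% and 69.2% in the other 7, beside a median of 52.4%. A match is a description and not evidence of binding. The bases just upstream of the start (RefSeq, GRCm38.p6) are printed with both motifs in capitals, for the highest 2 members, for Pcdh17, which has 2 boxes, and for Pcdh20, whose box lies farther upstream than the bases shown: Pcdh8 (chr14:79771313-79771422, minus strand), Pcdh10 (chr3:45378288-45378397, plus strand), Pcdh17 (chr14:84443453-84443562, plus strand) and Pcdh20 (chr14:88471397-88471506, minus strand).
Pcdh8: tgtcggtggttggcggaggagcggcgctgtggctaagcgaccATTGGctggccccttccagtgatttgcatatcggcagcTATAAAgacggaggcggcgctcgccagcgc
Pcdh10: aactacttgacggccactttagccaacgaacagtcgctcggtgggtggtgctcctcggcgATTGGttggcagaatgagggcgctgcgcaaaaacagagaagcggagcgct
Pcdh17: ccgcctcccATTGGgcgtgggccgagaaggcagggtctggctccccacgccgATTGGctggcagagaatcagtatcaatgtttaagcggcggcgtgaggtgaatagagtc
Pcdh20: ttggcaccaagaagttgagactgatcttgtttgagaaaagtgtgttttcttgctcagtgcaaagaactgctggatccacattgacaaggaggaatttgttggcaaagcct

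Of the 9 genes, 6 share a chromosome with another member on the mm10 build, at gaps of 3.93 Mb or more. These gaps were not compared with those of other genes. Chromosome 14 carries Pcdh8, Pcdh17 (84443563 to 84539002), Pcdh20 and Pcdh9 in that order, with gaps of 4.67, 3.93 and 4.54 Mb. Only 1 protein-coding gene, Olfm4, lies in the first gap, 2 (Diaph3 and Tdrd3) in the second and none in the last. Chromosome 3 carries Pcdh10 (45378398 to 45435623) and Pcdh18 (49743296 to 49757325), 4.31 Mb apart with 1 protein-coding gene, Pabpc4l, between them. Neighbours were not alike in level, since the chromosome 14 genes run from Pcdh8 at 53.2 TPM to Pcdh20 at 1.44 TPM. Nor were they alike in the difference between the libraries, where Pcdh8 was lower in replicate 2 and the other 3 were higher. Pcdh19 lies on the X chromosome (133582860 to 133688987, minus strand).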

How the data were processed

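The deposited mm10 gene and transcript tables give expected counts, which the authors estimated per feature on GENCODE M4 annotation, per the files' text notes, together with deposited TPM and deposited FPKM values. The sources used here do not name the tool. For mm9, deposited gene values on Ensembl 65 models are in RPKM. Deposited mm9 splice junctions carry a read count, summed by the authors over the replicates, and a deposited reproducibility fraction, computed by the authors per junction. Its column has no header, and the sources used here do not say how the fraction was computed. It was 0.079 for a Pcdh17 junction with 5 and 5 reads, and 0 for a Pcdh1 junction with 7 and 66. A low fraction therefore need not mean that the replicates resemble each other. Replicate numbers in the mm9 files are not tied to the libraries.

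Replicates 1 and 2 held 107938353 and 101105391 expected counts, of which 3.53% to 4.12% fell on 97 spike-in rows. Those rows and 26248 rows with numbers for names, which held no counts, stayed out of the gene counts. A total of 3 counts is 2.78e-06% and 2.97e-06% of the libraries. Symbols, positions and exons came from GENCODE M21. All 119 list entries matched. Members and lists were chosen with earlier results of these data known. Named genes are the members, the 3 highest genes of each partner list with any that differ 2-fold, and up to 2 of each marker list. Dab1, as the partner of Pcdh18, and Smad3, as a partner gene below Pcdh9, were named after their values were seen. Ratios used log2(TPM + 1). A motif was sought in translated complete reading frames, as a description. The membrane stretch was the most hydrophobic window in the later part of each longer reading frame. No lower limit was set, so 1 was always assigned. Expected counts were rounded for TMM (edgeR 4.0.16) and size factors (DESeq2 1.42.0), both tested on simulated data; R 4.3.3, Python 3.11.15, pandas 2.3.3 and scipy 1.17.1 were used.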

Additional observations from a re-analysis of the deposited data

How the results depend on the processing

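The number of members detected in both libraries was 8 or 9 under every alternative run (the TPM limit, posterior mean TPM, FPKM, rescaling without mitochondrial and spike-in rows, mm9 RPKM, each library left out). The number of pairs apart ranged from 29 to 31. All 9 leading transcripts were shared by the libraries under each alternative run, which for Pcdh17 was fixed by its 1 annotated transcript. Annotated introns with reads numbered 33 at 10 reads or more and 34 at a reproducibility value below 0.1. The number of members that differed 2-fold or more, 1 as reported, was 2 with a pseudocount of 0.1 TPM and 2 after rescaling, with Pcdh7 added to Pcdh1 in both. It was 5 at a limit of 1.5-fold and 0 with mm9 RPKM. It stayed at 1 with posterior mean TPM, FPKM, TMM, DESeq2 size factors and no filter. No single ratio changed sign in 45 recomputations. Of 18 leading transcript shares recomputed from both libraries, 8 moved by more than the SD between libraries, and of 18 recomputed levels 2 did. Leaving out 1 of 2 libraries cannot move a mean by more than the SD, so those values say nothing of stability. Signed ratios per member were not run with mm9 RPKM, because its replicate numbers are not tied to the libraries. No paired analysis was possible because there is only 1 group. With 2 libraries, the SD itself is poorly known. Pcdh20, with 391 and 476 counts and 15 reads on its main junction, is limited by depth.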

Other observations

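The replicate numbers of the mm9 files ran in opposite directions for these genes. The first RPKM value was the higher for 8 of the 9 genes (for Pcdh1, 3.04 and 1.11, and for Pcdh10, 5.71 and 3.81), and the second value was the higher for 1, Pcdh8 (5.58 and 7.52). In the junction file, the second replicate had more reads for 7 of the 9 genes (for Pcdh1, 200 and 689 reads, and for Pcdh10, 1450 and 2181), with Pcdh8 (1166 and 1071) and Pcdh20 (10 and 5) the other way. Because neither file ties its numbers to a library, no value of those files was given to replicate 1 or 2 of the mm10 tables.

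A junction upstream of Pcdh9, from 94288108 to 94289339 on chromosome 14 of mm9 and outside the annotated introns of that build, had 209 reads, more than any annotated intron of the gene other than the last, which had 338. GENCODE M21 has an intron of the same length, 1232 nt, between the first exons of Pcdh9-204 and Pcdh9-208.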
